A study of Homo sapiens with 40 samples.

Results

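Described here are 8 genes that guide where B cells go: the receptors GPR183, S1PR1, CXCR4, CXCR5, CCR7 and ACKR3, and the regulators of G protein signalling RGS1 and RGS2. They were chosen by name from the genes of that kind, and each has a probe of 1 matching symbol in the array annotation. Other receptors and RGS genes were also on the arrays and are described further below. They make up 8 of 4604 measured genes and 30 of 15246 probes, with 8 probes for CXCR4, 7 for CXCR5, 4 each for GPR183 and CCR7, 2 each for S1PR1, ACKR3 and RGS1, and 1 for RGS2.

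RNA of OCI-Ly3 and OCI-Ly10, established lines of activated B cell-like diffuse large B cell lymphoma, was compared on 40 arrays that each held treated cells in the Cy5 channel and control cells of the same line in the Cy3 channel. The series addressed how STAT3 and NF-kB signalling act on gene expression in such cells. OCI-Ly3 received 50 ng/ml IL-10 for 1, 3, 6, 24, 48 or 96 h (10 arrays), and OCI-Ly10 received 50 ng/ml IL-6 for 0.5, 1, 3, 6 or 24 h (8 arrays). OCI-Ly10 was electroporated with a 4 uM pool of STAT3 siRNA and collected at 8, 24 or 48 h (5 arrays), its control being electroporated without siRNA, or received 5 uM JAK inhibitor I for 3 or 6 h (4 arrays). Derivatives of each line that carry an inducible IkB super-repressor, a form of IkB that holds NF-kB inactive, received 20 ng/ml doxycycline for 1, 1.5, 2, 3, 4 or 6 h (OCI-Ly3, 9 arrays) or for 1.5, 3, 6 or 24 h (OCI-Ly10, 4 arrays), against the same derivative labelled control. Vehicle of the inhibitor is not stated. A non-targeting siRNA and doxycycline given to cells that lack the super-repressor were not among the arrays, so these agents and their targets cannot be told apart. Whether a derivative was 1 clone is not stated.

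Cells of the B lineage move along gradients read by receptors that mostly couple to inhibitory G proteins. CXCR5 draws them to CXCL13 in follicles, CCR7 to its ligands in the T zone, CXCR4 to CXCL12, GPR183 to oxysterols at follicle borders, and S1PR1 to sphingosine phosphate at exits from lymphoid tissue. ACKR3 also binds CXCL12, but signals through arrestin and takes the ligand up, while RGS proteins speed GTP hydrolysis on G protein alpha subunits and so end the receptor's signal.

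RefSeq promoters (GRCh38.p14, the 250 bases before a transcript start) were at hand for 6 of the 8 genes, all but CCR7 and ACKR3. They were searched on both strands for TTCNNNGAA, a general STAT motif, and for the NF-kB consensus, since the treatments act on these factors. The STAT motif had no match in the 6, and 6.57% of all 35116 promoters of that length hold it. The NF-kB consensus matched in RGS1 and S1PR1, and 9.96% of all promoters hold it. Given 5′ to 3′ on the strand of the gene are the stretches before GPR183, the member with the largest change, before RGS1 and S1PR1, which hold the match (in capitals), and before RGS2, whose start lies 233266 bases from that of RGS1 on chromosome 1 and whose stretch has no match. They lie at chr13:99307400-99307649 on the minus strand for GPR183, and on the plus strand at chr1:101236769-101236898 for S1PR1, where only the 130 bases before the gene's first start are given, at chr1:192575523-192575772 for RGS1 and at chr1:192808789-192809038 for RGS2. The match begins 106 bases before the start of RGS1 and 93 bases before the first start of S1PR1, where the same letters match on both strands. A match describes these letters and is not a site.
GPR183: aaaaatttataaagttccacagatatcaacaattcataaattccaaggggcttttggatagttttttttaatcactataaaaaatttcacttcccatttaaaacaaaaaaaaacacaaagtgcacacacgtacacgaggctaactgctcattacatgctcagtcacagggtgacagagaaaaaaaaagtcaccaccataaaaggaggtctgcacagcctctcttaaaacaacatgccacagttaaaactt
S1PR1: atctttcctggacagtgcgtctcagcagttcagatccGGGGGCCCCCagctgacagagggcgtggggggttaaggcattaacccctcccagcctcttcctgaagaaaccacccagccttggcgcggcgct
RGS1: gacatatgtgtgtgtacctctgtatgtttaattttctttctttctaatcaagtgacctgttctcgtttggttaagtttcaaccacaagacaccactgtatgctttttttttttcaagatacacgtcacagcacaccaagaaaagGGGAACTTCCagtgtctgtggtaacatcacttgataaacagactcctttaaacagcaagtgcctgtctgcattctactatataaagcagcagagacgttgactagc
RGS2: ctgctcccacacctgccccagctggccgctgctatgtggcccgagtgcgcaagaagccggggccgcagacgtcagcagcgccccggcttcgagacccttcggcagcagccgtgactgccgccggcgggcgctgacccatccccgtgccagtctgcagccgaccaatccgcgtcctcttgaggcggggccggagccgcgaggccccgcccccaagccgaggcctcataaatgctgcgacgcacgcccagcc

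Every value below is a ratio of treated over control cells on the log2 scale (base 2 is assumed, since the base is not stated), so 1 is a doubling and none is a level. The direction follows the dyes in the labels. It was checked on the targeted STAT3, at -1.59 ± 0.17 (SE, n = 4 arrays) after STAT3 siRNA, and on NFKBIA, a standard NF-kB target, at -1.61 ± 0.10 (n = 7) in OCI-Ly3 and -1.03 ± 0.15 (n = 3) in OCI-Ly10 with the super-repressor. A gene is called higher or lower where the mean over the times of a window differs from 0 at an adjusted p under 0.05 (limma's moderated test, adjusted over all genes tested). In bulk RNA, fewer cells of a kind and less RNA per cell cannot be told apart. Of 13 B cell markers 12 were on the arrays, but a ratio within a line cannot show how strongly the line expresses them. Arrays fell into 12 runs of consecutive identifiers, which the labels do not describe, and replicates of a time lay in different runs, so a call is also given with the run as a random block where that ends it.

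**Figure D1:**
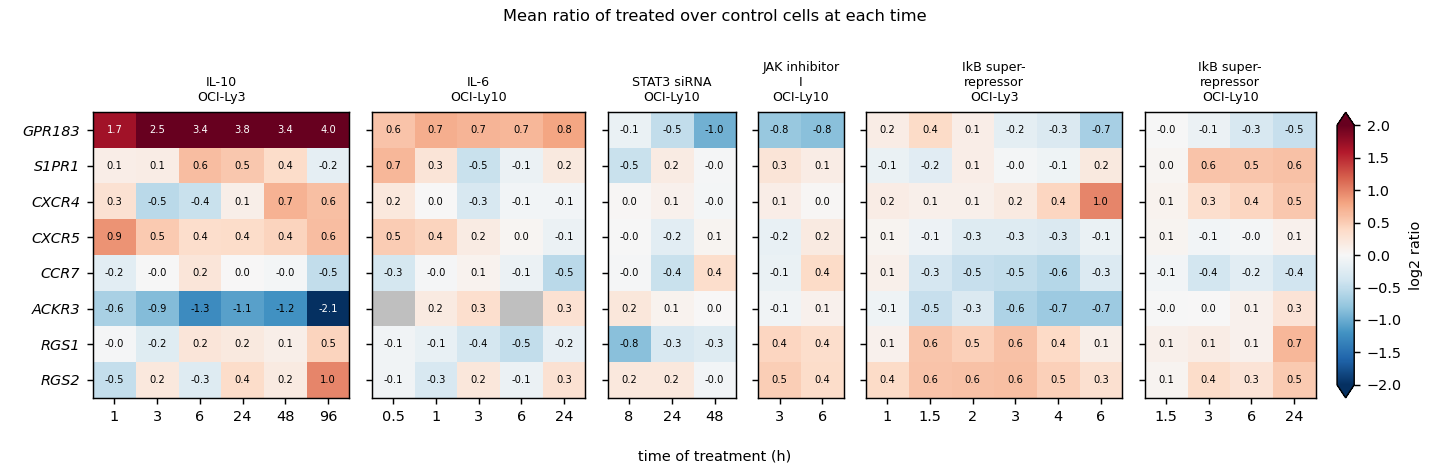
Mean log2 ratio of treated over control cells for the 8 genes (rows) at each time of the 6 experiments (columns, h); red is higher and blue lower in treated cells, colours saturate at 2 and -2, and grey cells have no value. GPR183 under IL-10 in OCI-Ly3 stands at 1.68 to 4.00, while the other 7 genes stay between -2.11 and 0.97 in every column.

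GPR183, the oxysterol receptor, was called with IL-10, IL-6, STAT3 siRNA and JAK inhibitor I. In OCI-Ly3 with IL-10 its arrays stood at 1.70 and 1.66 at 1 h, 2.44 and 2.54 at 3 h, 3.79 and 3.06 at 6 h, 4.30 and 3.27 at 24 h, 3.40 at 48 h and 4.00 at 96 h. All 10 were above 0, and the lowest of the arrays at 6 h and later lay above the highest at 1 and 3 h. The mean was 3.13 ± 0.09 (SE, n = 10), an 8.76-fold rise (adjusted p = 6.44e-15). IL-10 changed much of the transcriptome: 35.3% of the 4383 genes tested were called, 16.1% higher and 19.2% lower, and of the 8 members 4 were called higher and 1 lower.

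In OCI-Ly10 GPR183 was higher with IL-6 and lower with STAT3 siRNA and with JAK inhibitor I. With IL-6 its ratios were 0.57 at 0.5 h, 0.84 and 0.62 at 1 h, 0.82 and 0.54 at 3 h, 0.83 and 0.50 at 6 h and 0.79 at 24 h. These 8 values were all above 0 and covered a similar range at each time. The mean from 1 h on was 0.72 ± 0.10 (n = 7, adjusted p = 0.000547), a 1.64-fold rise. IL-6 led to calls for 4.54% of 3301 genes, and for 2 of the 7 members tested, GPR183 and RGS1; no single time passed for GPR183. With the replicate number as a block, which pairs these arrays, 314 genes in place of 150 were called with IL-6, among them the same 2 members, and GPR183 was then called at 1 h (adjusted p = 0.0359) and 6 h (adjusted p = 0.0425).

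STAT3 siRNA left GPR183 at -0.13 at 8 h, -0.44 and -0.56 at 24 h and -1.02 and -0.91 at 48 h. Both arrays at 48 h were lower than both at 24 h. Over 24 and 48 h the mean was -0.73 ± 0.13 (n = 4, adjusted p = 0.00562), a fall to 0.602 of the control, and GPR183 was the 1 member called, against 3.31% of all genes. With arrays scaled to equal spread it was at -0.64 and not called (adjusted p = 0.124), nor was it in a fit of the siRNA arrays alone (adjusted p = 0.16). That last fit called 0 of all genes, against 144 in the main fit, so its lack of a call is not particular to GPR183. JAK inhibitor I gave -0.81 and -0.72 at 3 h and -1.0 and -0.66 at 6 h. All 4 were below 0, with a mean of -0.80 ± 0.13 (adjusted p = 0.00169), and 3.26% of all genes were called in this comparison, against 3 of the 8 members.

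**Figure D2:**
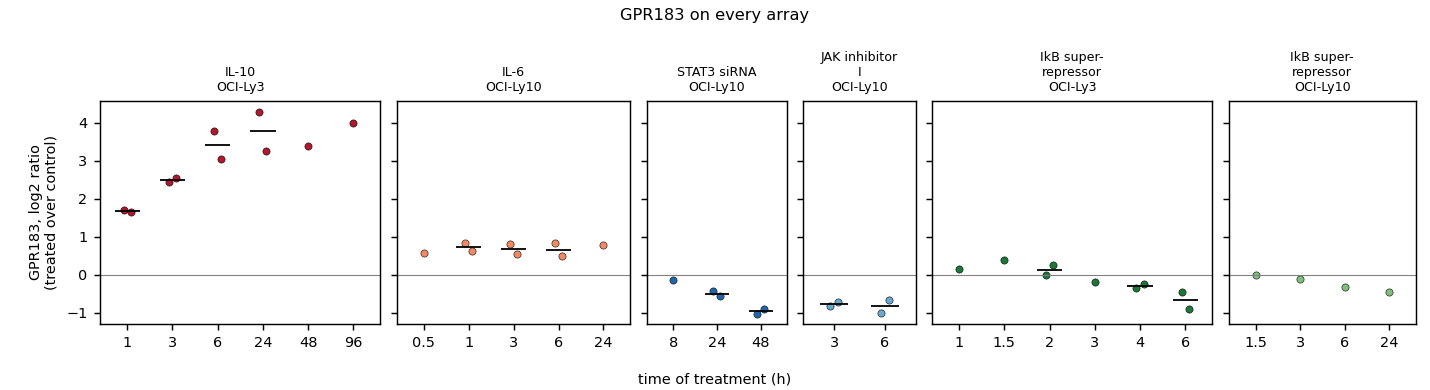
Log2 ratio of GPR183 (vertical axis) on each array against time of treatment (h) in the 6 experiments; points are arrays and bars are means of 2 replicates. Points lie between 1.66 and 4.30 with IL-10 and between 0.50 and 0.84 with IL-6, and all 9 with STAT3 siRNA or JAK inhibitor I lie below 0.

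Under the IkB super-repressor GPR183 was not called in either line, except at 6 h in OCI-Ly3 with the replicate block (adjusted p = 0.0375). In OCI-Ly3 its values were 0.15 at 1 h, 0.38 at 1.5 h, 0.01 and 0.25 at 2 h, -0.19 at 3 h, -0.36 and -0.24 at 4 h and -0.45 and -0.89 at 6 h. Arrays up to 2 h were above 0 and those from 3 h on below it. In OCI-Ly10 it stood at -0.01, -0.11, -0.32 and -0.46 at 1.5, 3, 6 and 24 h. The window means were -0.26 ± 0.10 (n = 7, adjusted p = 0.1) and -0.30 ± 0.15 (n = 3, adjusted p = 0.827). The lines differed by -0.01 ± 0.21 at the shared 1.5, 3 and 6 h, with an interval from -0.45 to 0.42.

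The GPR183 response was larger in the IL-10 experiment than in the IL-6 one, although cytokine and line differ together there and cannot be told apart. At the shared 1, 3, 6 and 24 h it averaged 2.85 with IL-10 in OCI-Ly3 and 0.72 with IL-6 in OCI-Ly10, a difference of 2.13 ± 0.14 (adjusted p = 2.21e-08). At the shared 3 and 6 h in OCI-Ly10 it averaged -0.80 with JAK inhibitor I and 0.67 with IL-6, a difference of -1.47 ± 0.19 (adjusted p = 0.000247), and the 4 arrays of each treatment did not overlap. Within the IL-10 series the mean over 24 to 96 h was 3.73 and that over 1 and 3 h 2.09, a difference of 1.64 ± 0.19 (adjusted p = 6.52e-06). With arrays scaled to equal spread that last difference was 0.81 and not called (adjusted p = 0.146). Of the 4 GPR183 probes, 3 had values with IL-10, at 2.91 to 3.43, and all 4 had the sign of the mean in the other 5 experiments.

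S1PR1, the egress receptor, was higher with IL-10 and, in OCI-Ly10, with the super-repressor. With IL-10 its arrays were at -0.21 and 0.48 at 1 h, -0.09 and 0.39 at 3 h, 0.50 and 0.75 at 6 h, 0.38 and 0.70 at 24 h, 0.37 at 48 h and -0.18 at 96 h. Arrays of 6 to 48 h were all above 0, and those at 1, 3 and 96 h straddled it. The mean was 0.27 ± 0.07 (n = 10, 7 above 0, adjusted p = 0.00401), and the call was absent from a fit of the IL-10 arrays alone (adjusted p = 0.0713). The replicates came from runs that averaged 0.58 and 0.14 over 1 to 24 h, and the gap between these runs was larger than the mean itself.

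In OCI-Ly10 with the super-repressor S1PR1 measured 0.04, 0.57, 0.55 and 0.59 at 1.5, 3, 6 and 24 h. The 3 later arrays were all higher than the first and close to each other. With 1 array per time, the SE and tests for this series do not measure the spread of these arrays. The mean from 3 h on was 0.57 ± 0.12 (n = 3, adjusted p = 0.028). In that comparison 0.532% of 4515 genes were called, 0.221% higher, against 2 members higher, S1PR1 and CXCR4. Each call rested on 3 arrays of 1 run: neither held when run was a block (adjusted p = 0.165 for S1PR1 and 0.372 for CXCR4), and leaving out the 3, 6 or 24 h array ended both (S1PR1 at 0.567, 0.579 and 0.56, adjusted p = 0.105, 0.151 and 0.39). In OCI-Ly3 with the super-repressor S1PR1 ran from -0.10 to 0.31 over 2 to 6 h, around a mean of 0.05 ± 0.08 (n = 7, adjusted p = 0.7).

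With IL-6 S1PR1 stood at 0.66 at 0.5 h, 0.23 and 0.28 at 1 h, -0.44 and -0.46 at 3 h, -0.20 and -0.04 at 6 h and 0.19 at 24 h. Values before 3 h were above 0 and those at 3 and 6 h below it, and the mean from 1 h on was -0.03 ± 0.08 (adjusted p = 0.863). At shared times it averaged 0.36 with IL-10 and -0.03 with IL-6, a difference of 0.39 ± 0.11 (adjusted p = 0.024). That call was lost when run was a block (adjusted p = 0.125), in a fit of these 2 experiments alone (adjusted p = 0.0967) and without any of 4 of the 15 arrays (0.31 to 0.37, adjusted p up to 0.0615): the second replicates at 1, 3 and 24 h of IL-10 and the first at 6 h of IL-6. STAT3 siRNA (0.08 ± 0.10) and JAK inhibitor I (0.20 ± 0.10) gave no call. At the shared 3 and 6 h S1PR1 averaged 0.20 with the inhibitor and -0.29 with IL-6. This difference of 0.49 ± 0.14 was not called (adjusted p = 0.0903). It was called with the replicate block (adjusted p = 0.0162) and in a fit of these 2 experiments alone (adjusted p = 0.0259). With arrays scaled to equal spread it was 0.59 and also called (adjusted p = 0.0146).

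CXCR4, the CXCL12 receptor, changed sign with time under IL-10. Its arrays were at 0.37 and 0.23 at 1 h, -0.54 and -0.53 at 3 h, -0.59 and -0.31 at 6 h, -0.19 and 0.42 at 24 h, 0.69 at 48 h and 0.60 at 96 h. Replicates agreed in sign except at 24 h, and the values at 3 and 6 h lay below all others. CXCR4 was called lower at 3 h (-0.54 ± 0.12, adjusted p = 0.00819, 3.69% of all genes called) and at 6 h (-0.45 ± 0.12, adjusted p = 0.0231, 6.79%), and higher at 48 h (0.69 ± 0.16, adjusted p = 0.0118, 6.12%) and 96 h (0.60 ± 0.16, adjusted p = 0.0167, 14.7%). For the last 2 times, with 1 array each, the spread in the test comes from other times and experiments. The mean over all times, 0.12 ± 0.05, was not called (adjusted p = 0.0896), and without the first 24 h replicate it was (0.17, adjusted p = 0.00919).

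The mean of CXCR4 over 24 to 96 h was 0.47 and that over 1 and 3 h -0.12, a difference of 0.59 ± 0.12 (adjusted p = 0.00226); 12.9% of 4402 genes were called on this difference, and 4 members. It was 0.39 and not called with arrays scaled to equal spread (adjusted p = 0.0528), and not called in a fit of the IL-10 arrays alone (adjusted p = 0.0984). The 2 runs that hold 1, 3 and 24 h did not share a direction, with 24 h above the mean of 1 and 3 h by 0.57 in one run and at -0.11 relative to it in the other.

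The super-repressor moved CXCR4 upward in both lines. In OCI-Ly3 its ratios were 0.15 at 1 h, 0.11 at 1.5 h, 0.07 and 0.15 at 2 h, 0.18 at 3 h, 0.43 and 0.44 at 4 h and 0.93 and 1.02 at 6 h. All 9 arrays were above 0, and those at 4 and 6 h stood above the earlier ones without overlap. The mean over 2 to 6 h was 0.42 ± 0.06 (n = 7, adjusted p = 0.000437), and CXCR4 reached 0.97 ± 0.12 at 6 h (adjusted p = 4.79e-05, 2.09% of all genes called). In this window 14% of 4390 genes were called, 9.16% higher and 4.87% lower, against 3 members higher (CXCR4, RGS1, RGS2) and 3 lower (CXCR5, CCR7, ACKR3). The difference of 4 and 6 h from 1 and 1.5 h was 0.57 ± 0.14, not called (adjusted p = 0.102) unless the run was a block (adjusted p = 0.0304); 0.476% of all genes and no member were called on it.

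In OCI-Ly10 CXCR4 stood at 0.07, 0.34, 0.43 and 0.54 at 1.5, 3, 6 and 24 h, each later array higher than the one before. The mean from 3 h on was 0.44 ± 0.09 (n = 3, adjusted p = 0.0398), with the limits given above, and without 1 of the 3 arrays it ran from 0.38 to 0.49 with no call. At the shared 1.5, 3 and 6 h CXCR4 averaged 0.42 in OCI-Ly3 and 0.28 in OCI-Ly10, a difference of 0.14 ± 0.13 with an interval from -0.13 to 0.41. On this difference between lines 0% of 4384 genes were called, 108 had an unadjusted p under 0.05, and no member was called. Of the 8 CXCR4 probes, 1 with values on 25 of 40 arrays had the opposite sign in OCI-Ly3, at -0.24 on 3 of the 7 super-repressor arrays and at -0.72 on 2 of the 10 IL-10 arrays. IL-6 (-0.11 ± 0.06), STAT3 siRNA (0.03 ± 0.08) and JAK inhibitor I (0.08 ± 0.08) gave no call for CXCR4.

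CXCR5, the follicle-homing receptor for CXCL13, was higher with IL-10, most at the first time. Its arrays were at 1.01 and 0.78 at 1 h, 0.52 and 0.53 at 3 h, 0.14 and 0.57 at 6 h, 0.33 and 0.39 at 24 h, 0.44 at 48 h and 0.62 at 96 h. All 10 were above 0, and both at 1 h lay above the other 8. The mean was 0.53 ± 0.05 (n = 10, adjusted p = 1.05e-07), a 1.45-fold rise, and that at 1 h 0.89 ± 0.11 (adjusted p = 4.83e-05), when 0.923% of all genes and 3 members (GPR183, CXCR5, ACKR3) were called. The difference of 24 to 96 h from 1 and 3 h, -0.23 ± 0.11, was not called (adjusted p = 0.189), and with arrays scaled to equal spread it was (-0.37, adjusted p = 0.0359). CXCL13, the ligand of CXCR5, was also higher with IL-10, at 1.25 ± 0.10 (adjusted p = 2.67e-07), and lower with the super-repressor in OCI-Ly3, at -0.56 ± 0.12 (adjusted p = 0.00996).

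With IL-6 CXCR5 stood at 0.50 at 0.5 h, 0.51 and 0.37 at 1 h, 0.16 and 0.17 at 3 h, 0.07 and 0.02 at 6 h and -0.12 at 24 h. The 3 arrays up to 1 h lay above the others. The mean from 1 h on was 0.13 ± 0.06 (adjusted p = 0.212), and the difference of 6 and 24 h from 0.5 and 1 h was -0.51 ± 0.13, not called (adjusted p = 0.133; 0.378% of all genes called) unless the run was a block (adjusted p = 0.0369). At shared times CXCR5 averaged 0.53 with IL-10 in OCI-Ly3 and 0.13 with IL-6 in OCI-Ly10, a difference of 0.40 ± 0.08 (adjusted p = 0.00271); on this difference 9.50% of 3644 genes were called, and 3 of the 7 members tested (GPR183, S1PR1, CXCR5). The super-repressor in OCI-Ly3 gave -0.34 to -0.03 over 2 to 6 h, all 7 arrays below 0, with a mean of -0.24 ± 0.06 (adjusted p = 0.0133). This small fall was not called when run was a block (adjusted p = 0.1), in a fit of its arrays alone (adjusted p = 0.0524) or without the first 6 h replicate (-0.21, adjusted p = 0.0616). Super-repressor in OCI-Ly10 (0.00 ± 0.09), STAT3 siRNA (-0.07 ± 0.07) and JAK inhibitor I (0.01 ± 0.07) gave no call. Single CXCR5 probes with IL-10 stood either at 0.79, 0.82, 0.86 and 1.02 or at -0.15, 0.06 and 0.18. The mean of 0.53 with IL-10 thus lies between these groups of probes.

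CCR7, the T zone receptor, had the largest standard error of the members tested in each of the 6 windows. Under the super-repressor in OCI-Ly3 it stood at -0.30 and -0.63 at 2 h, -0.49 at 3 h, -0.45 and -0.68 at 4 h and -0.45 and -0.09 at 6 h. All 7 arrays were below 0, as were all 4 probe means, and the mean was -0.45 ± 0.14 (adjusted p = 0.0374). It was not called when run was a block (adjusted p = 0.201), nor without any 1 of 4 arrays (-0.48 to -0.40, adjusted p up to 0.123): the first or second 4 h, first 6 h or second 2 h replicate. In OCI-Ly10 the super-repressor gave -0.06, -0.37, -0.21 and -0.38 at 1.5, 3, 6 and 24 h (mean from 3 h on -0.32 ± 0.20, adjusted p = 0.966). CCR7 was not called with IL-10 (-0.09 ± 0.12), IL-6 (-0.15 ± 0.14), STAT3 siRNA (-0.04 ± 0.17) or JAK inhibitor I (0.12 ± 0.17), and its replicates at 48 h of siRNA were at -0.24 and 0.96. Its 4 probes were split 2 against 2 in sign with IL-10, IL-6 and the super-repressor in OCI-Ly10. The 2 below 0 had values on all 40 arrays, and stood at -0.85 and -0.64 with the super-repressor in OCI-Ly10. The 2 above 0, with values on 34 and 28 arrays, stood there at 0.09 and 0.11. CCR7 was not called in that window under any alternative.

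ACKR3, the scavenging receptor for CXCL12, was the member that fell most. With IL-10 it was at -0.76 and -0.53 at 1 h, -0.58 and -1.17 at 3 h, -0.96 and -1.55 at 6 h, -0.97 and -1.20 at 24 h, -1.21 at 48 h and -2.11 at 96 h. All 10 arrays were below 0, and the 96 h array was the lowest. The mean was -1.19 ± 0.06 (n = 10, adjusted p = 9.66e-11), a fall to 0.437 of the control, and both probes gave -1.22 to -1.17. Averaged over 24 to 96 h it was -1.47 and over 1 and 3 h -0.76, a difference of -0.71 ± 0.14 (adjusted p = 0.00217). That difference rested on the 96 h array, without which it was -0.39 (adjusted p = 0.155); it was -0.31 with arrays scaled to equal spread (adjusted p = 0.169) and -0.52 from the probe on most arrays (adjusted p = 0.134).

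**Figure D3:**
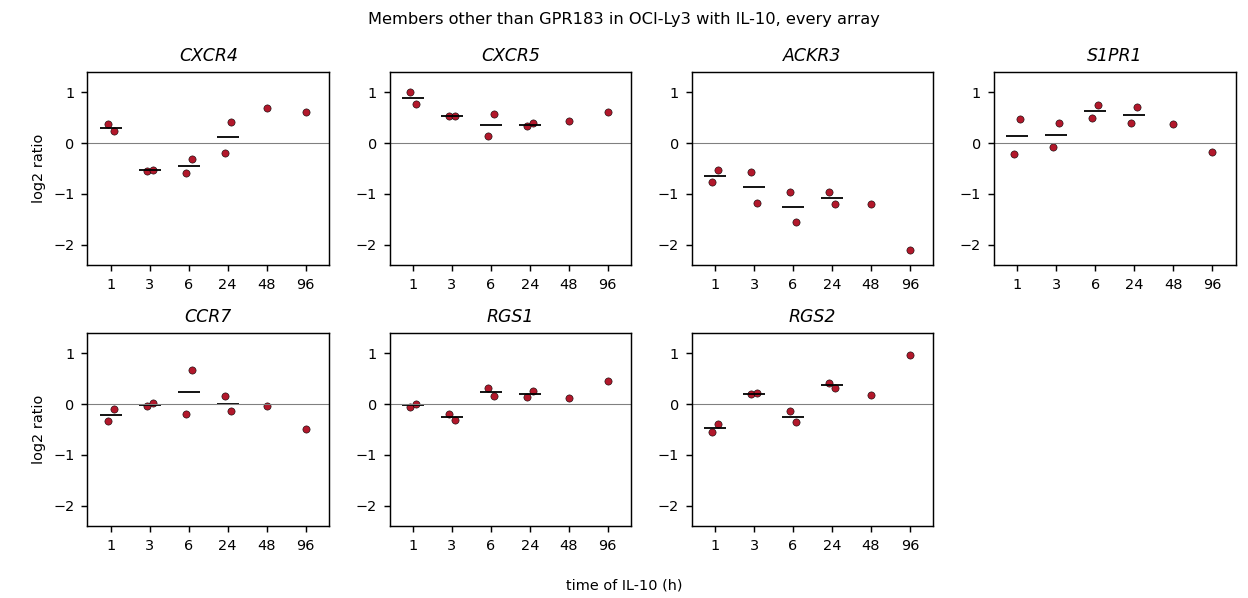
Log2 ratio (vertical axis) of the 7 genes other than GPR183 on each array of OCI-Ly3 with IL-10, against time (h); points are arrays and bars means of 2 replicates. CXCR4 lies below 0 at 3 and 6 h and above it at 48 and 96 h, all CXCR5 points lie above 0 and all ACKR3 points below it, down to -2.11 at 96 h.

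The super-repressor lowered ACKR3 in OCI-Ly3. The values were -0.09 at 1 h, -0.46 at 1.5 h, -0.31 and -0.26 at 2 h, -0.61 at 3 h, -0.70 and -0.77 at 4 h and -0.75 and -0.69 at 6 h. Arrays from 3 h on lay below all earlier ones, and the 2 to 6 h mean was -0.59 ± 0.08 (n = 7, adjusted p = 0.000105). Within each of the 2 runs the window mean was -0.59 and -0.58. In OCI-Ly10 ACKR3 was at -0.01, 0.01, 0.08 and 0.27 at 1.5, 3, 6 and 24 h, close to or above 0 (mean from 3 h on 0.12 ± 0.11, adjusted p = 0.998).

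At the shared 1.5, 3 and 6 h of the super-repressor ACKR3 averaged -0.60 in OCI-Ly3 and 0.03 in OCI-Ly10, a difference of -0.63 ± 0.15 with an interval from -0.94 to -0.31 that was not called after adjustment (adjusted p = 0.994). With IL-6 in OCI-Ly10 the 5 arrays with a value were all above 0, at 0.09 to 0.37, and the gene was not tested since 6 h had none. STAT3 siRNA gave 0.04 ± 0.10 and JAK inhibitor I 0.01 ± 0.10, with no call. No OCI-Ly10 experiment thus gave a call for ACKR3, while the difference between the lines was itself not called.

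RGS1, which acts on inhibitory G protein subunits in B cells, was higher with the JAK inhibitor and lower with IL-6 in OCI-Ly10. IL-6 gave -0.06 at 0.5 h, -0.08 and -0.21 at 1 h, -0.35 and -0.37 at 3 h, -0.54 and -0.45 at 6 h and -0.17 at 24 h. All 8 arrays were below 0, lowest at 6 h. JAK inhibitor I gave 0.24 and 0.61 at 3 h and 0.24 and 0.47 at 6 h, all above 0. At the shared 3 and 6 h RGS1 averaged 0.39 with JAK inhibitor I and -0.43 with IL-6, a difference of 0.82 ± 0.14 (adjusted p = 0.00285), and 2.17% of 4001 genes were called on it, against 2 of the 7 members tested (GPR183 and RGS1). The difference was called without any 1 of the 8 arrays (0.73 to 0.91) and with the run as a block.

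Each side of that difference was a weaker call. With IL-6 the mean from 1 h on was -0.29 ± 0.08 (n = 7, adjusted p = 0.0383), not called when run was a block (adjusted p = 0.184) or without any 1 of the 6 arrays at 1, 3 and 6 h (-0.31 to -0.28, adjusted p = 0.0575 to 0.116). With JAK inhibitor I it was 0.39 ± 0.10 (n = 4, adjusted p = 0.0349), not called when run was a block (adjusted p = 0.0835) or without any 1 of the 4 arrays (0.30 to 0.48, adjusted p = 0.0518 to 0.346). STAT3 siRNA gave -0.84 at 8 h, -0.54 and -0.11 at 24 h and -0.34 and -0.18 at 48 h, all 5 below 0. The single 8 h array was called (adjusted p = 0.0232, 5.29% of all genes called). The mean over 24 and 48 h, -0.29 ± 0.10, was not called (adjusted p = 0.112), but was with the replicate block (adjusted p = 0.0284). From the RGS1 probe with a value on all 40 arrays that mean was -0.47, and the other probe stood at -0.11. The former was called with the probe on most arrays (adjusted p = 0.0367) and with probes that have a value on every array (adjusted p = 0.0228). With 1 array at 8 h, the spread in the test of that time comes from other times and experiments.

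**Figure D4:**
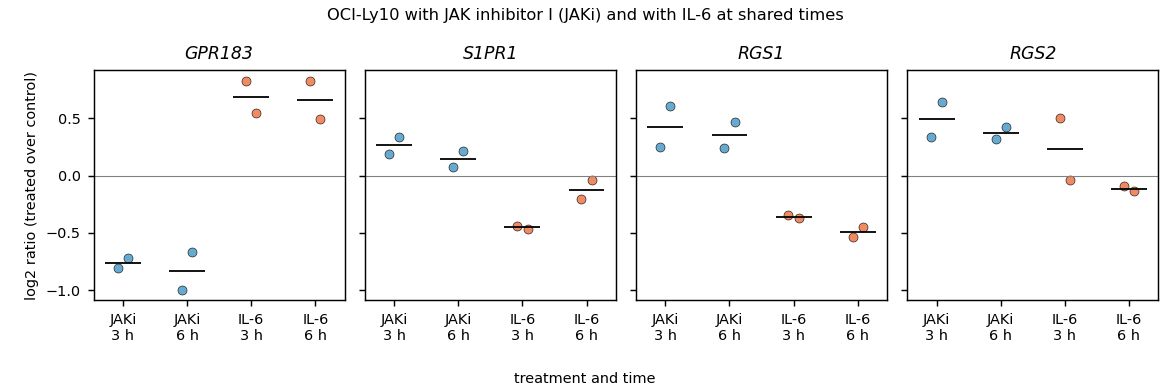
Log2 ratio (vertical axis) of GPR183, S1PR1, RGS1 and RGS2 on each array of OCI-Ly10 with JAK inhibitor I (JAKi) and with IL-6 at 3 and 6 h; points are arrays and bars are means of 2 replicates. GPR183 lies at -1.0 to -0.66 with the inhibitor and at 0.50 to 0.83 with IL-6, and RGS1 at 0.24 to 0.61 with the inhibitor and at -0.54 to -0.35 with IL-6.

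Under the super-repressor in OCI-Ly3 RGS1 measured 0.09 at 1 h, 0.56 at 1.5 h, 0.12 and 0.82 at 2 h, 0.58 at 3 h, 0.18 and 0.61 at 4 h and 0.11 and 0.12 at 6 h. All 9 arrays were above 0. The 2 runs averaged 0.14 and 0.53 over the window, but did not differ at 6 h, with 0.11 and 0.12. The mean over 2 to 6 h was 0.39 ± 0.08 (n = 7, adjusted p = 0.00417), and 0.37 and not called when run was a block (adjusted p = 0.0519). In OCI-Ly10 the arrays were at 0.10, 0.14, 0.09 and 0.66 at 1.5, 3, 6 and 24 h, where 24 h stands apart (mean from 3 h on 0.30 ± 0.12, adjusted p = 0.583). With IL-10 RGS1 averaged 0.12 ± 0.07 (adjusted p = 0.16), at 0.26 over 24 to 96 h and -0.14 over 1 and 3 h. That difference of 0.39 ± 0.15 was not called (adjusted p = 0.0884), but was with the replicate number as a block (adjusted p = 0.024). From the RGS1 probe with a value on all 40 arrays the difference was 0.83 and called (adjusted p = 0.00527). The probes did not move alike: over all IL-10 times this one averaged 0.25 and the other 0.00. The difference was not computed from the other probe alone. At shared times RGS1 averaged 0.04 with IL-10 and -0.29 with IL-6, a difference of 0.33 ± 0.11 (adjusted p = 0.0552, and 0.0136 with the replicate block).

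RGS2, which acts best on the G protein subunit that activates phospholipase C, was higher with the super-repressor and with the JAK inhibitor. In OCI-Ly3 the super-repressor gave 0.39 at 1 h, 0.57 at 1.5 h, 0.55 and 0.63 at 2 h, 0.60 at 3 h, 0.37 and 0.60 at 4 h and 0.37 and 0.28 at 6 h. All 9 arrays were above 0, and the 2 to 6 h mean was 0.50 ± 0.07 (n = 7, adjusted p = 0.000284). Its 2 runs averaged 0.43 and 0.53. In OCI-Ly10 it stood at 0.06, 0.37, 0.28 and 0.52 at 1.5, 3, 6 and 24 h, all above 0 (mean from 3 h on 0.39 ± 0.11, adjusted p = 0.171).

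**Figure D5:**
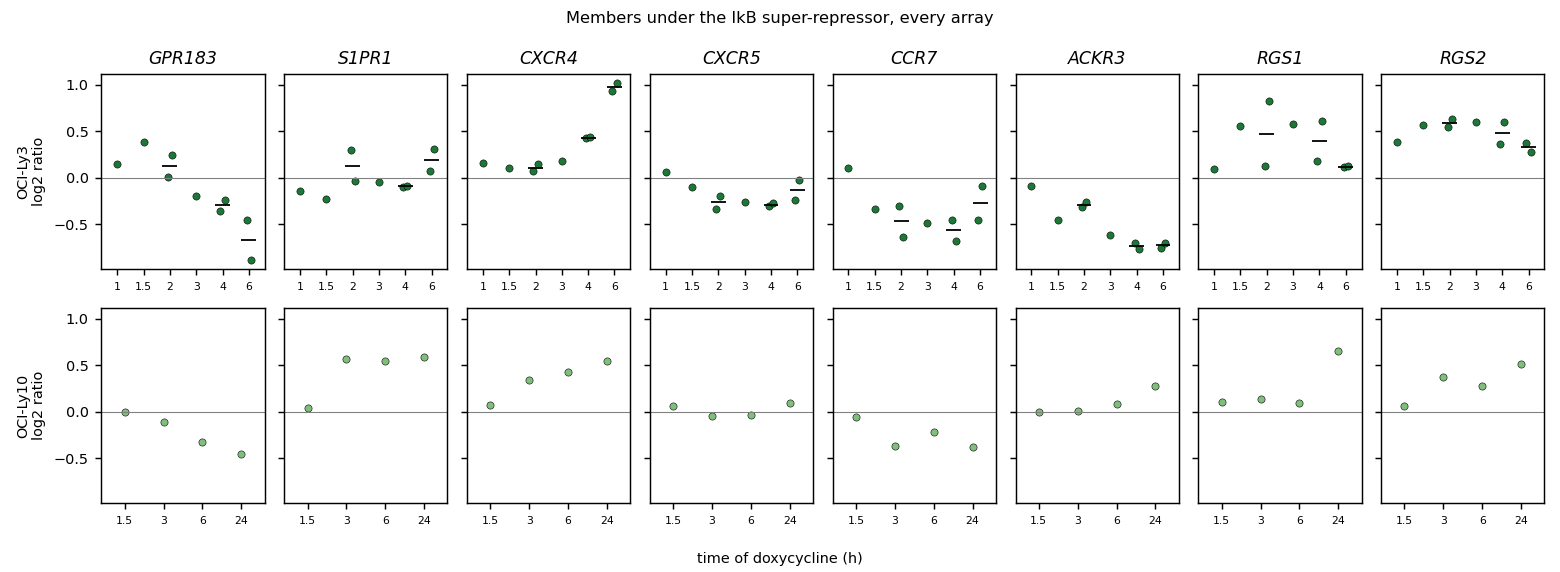
Log2 ratio (vertical axis) of the 8 genes on each array under the IkB super-repressor in OCI-Ly3 (top row) and OCI-Ly10 (bottom row) against time of doxycycline (h); points are arrays and bars means of 2 replicates. CXCR4 climbs to 0.93 and 1.02 at 6 h in OCI-Ly3 and to 0.54 at 24 h in OCI-Ly10, and ACKR3 lies below 0 on every OCI-Ly3 array and between -0.01 and 0.27 in OCI-Ly10.

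JAK inhibitor I gave RGS2 values of 0.34 and 0.64 at 3 h and 0.32 and 0.42 at 6 h, all above 0. The mean was 0.43 ± 0.09 (n = 4, adjusted p = 0.0126), and it was not called without the second 3 h replicate (0.35, adjusted p = 0.192), without the second 6 h replicate (0.41, adjusted p = 0.0827) or in a fit of the inhibitor's arrays alone (adjusted p = 0.118). IL-6 gave 0.50 and -0.04 at 3 h and -0.09 and -0.13 at 6 h, and the inhibitor's 0.43 against 0.06 with IL-6 over these times, a difference of 0.37 ± 0.13, was not called (adjusted p = 0.18). STAT3 siRNA gave no call (0.08 ± 0.09).

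With IL-10 RGS2 was at -0.55 and -0.39 at 1 h, 0.20 and 0.22 at 3 h, -0.14 and -0.36 at 6 h, 0.42 and 0.31 at 24 h, 0.19 at 48 h and 0.97 at 96 h. Replicates agreed in sign at each time, negative at 1 and 6 h and positive at the others. The mean of 0.17 ± 0.06 was called (n = 10, 6 above 0, adjusted p = 0.0402), but was 0.01 without the 96 h array (adjusted p = 0.942), not called when run was a block (adjusted p = 0.113) and lost without any 1 of 8 of the 10 arrays. Averaged over 24 to 96 h it was 0.51 and over 1 and 3 h -0.13, a difference of 0.64 ± 0.13 (adjusted p = 0.00315), and 0.41 without the 96 h array (adjusted p = 0.11). RGS2 rests on 1 probe.

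Read by treatment, the members did not move as 1 group. Over 26 times of treatment GPR183 and CXCR5 had a Pearson correlation of 0.691, and GPR183 and ACKR3 of -0.775 over the 24 times with both. These describe time means that share arrays and 6 in which IL-10 was present. The median ratio of the members was 0.15 with IL-10 (all genes -0.02), -0.03 with IL-6 (all genes -0.01), -0.09 and 0.21 with the super-repressor in OCI-Ly3 and OCI-Ly10 (all genes -0.03 and -0.01), -0.01 with STAT3 siRNA (all genes -0.01) and 0.10 with JAK inhibitor I (all genes 0.00). GPR183 was called in 4 of the 6 experiments and no other member in more than 3.

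Of other receptors for chemoattractants and positioning signals, 2 of 27 tested rose and 4 fell with IL-10, where 35.3% of all genes were called, and their median was -0.02, as that of all genes. For the counts of this and the next gene lists, the shares of all genes called were 4.54% with IL-6, 14% and 0.532% with the super-repressor in OCI-Ly3 and OCI-Ly10, 3.31% with STAT3 siRNA and 3.26% with JAK inhibitor I. The largest changes were falls of CXCR3, the receptor for interferon-induced chemokines (-0.93 ± 0.12, adjusted p = 4.98e-05), and CCR2, a monocyte chemokine receptor (-0.62 ± 0.06, adjusted p = 6e-08). IL-6 raised 1 of 19, CCR1 (0.38 ± 0.09, adjusted p = 0.0213), the super-repressor in OCI-Ly3 raised CCR8 (0.27 ± 0.07) and lowered the prostaglandin receptor PTGER4 (-0.29 ± 0.07), and JAK inhibitor I lowered CCR8 (-0.42 ± 0.08) of 27. None was called with STAT3 siRNA (24 tested) or with the super-repressor in OCI-Ly10 (27 tested).

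Among other RGS genes, G protein subunits, receptor kinases and arrestins, 8 of 33 rose and 4 fell with IL-10, a share close to the 35.3% of all genes. GNG10, a G protein gamma subunit, followed the direction of GPR183 where called, at 0.51 ± 0.05 with IL-10 (adjusted p = 6.37e-07), 0.25 ± 0.06 with IL-6 (adjusted p = 0.0306) and -0.42 ± 0.08 with STAT3 siRNA (adjusted p = 0.00818). RGS11 was at 0.36 ± 0.05 with IL-10, and IL-6 raised 3 of 29, with GNAQ at 0.38 ± 0.09 and RGS16 at 0.27 ± 0.07. The super-repressor in OCI-Ly3 raised 2 of 34 (GNAI3 at 0.22 ± 0.06) and lowered 1 (GNAZ at -0.21 ± 0.07), and JAK inhibitor I lowered 1 of 33, GNG2 (-0.37 ± 0.08). Of 10 ligands and ligand enzymes 3 rose with IL-10, CXCL13 first and then CXCL11 (0.28 ± 0.08), and CXCL13 alone fell with the super-repressor in OCI-Ly3.

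Genes of adhesion and egress split 3 up and 3 down of 21 with IL-10, led by CD24 (-0.71 ± 0.07) and the integrin subunit ITGB7 (0.43 ± 0.06). The super-repressor in OCI-Ly3 lowered 3, led by the integrin ligand ICAM1 (-0.66 ± 0.07, adjusted p = 5.87e-06), and raised CD24 (0.38 ± 0.08). STAT3 siRNA lowered 1, the integrin subunit ITGAL (-0.38 ± 0.09).

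Of markers of other cells, T and NK genes were called 2 up and 2 down of 23 with IL-10, 2 up of 12 with IL-6, 2 down of 23 with the super-repressor in OCI-Ly3 and 1 down of 23 with STAT3 siRNA. GZMB, a granzyme, was 1 of them, at 1.05 ± 0.14 with IL-6 and -1.08 ± 0.16 with STAT3 siRNA, and was not called with JAK inhibitor I. Myeloid genes were called 4 up and 1 down of 9 with IL-10, led by CD14 (0.60 ± 0.09), and none with the other treatments. B cell markers were called 3 up and 3 down of 12 with IL-10 (CD79A at -0.34 ± 0.08), 1 up and 1 down with the super-repressor in OCI-Ly3, POU2AF1 alone (-0.43 ± 0.09) with it in OCI-Ly10, and CD79B alone (0.68 ± 0.13) with JAK inhibitor I. Their medians with IL-10 were -0.06 for B cell, -0.02 for T and NK and 0.08 for myeloid markers, and their part in the members' changes was not tested.

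By Pearson correlation over the times with a value in both genes (at least 20), the genes most like GPR183 were GCA (0.958), CXCL9 (0.954) and TSPAN13 (0.952). Without the IL-10 times these were 0.674, 0.786 and 0.516. For ACKR3 the closest were CCND1 (0.919), FMNL3 (0.897) and TNF (0.87), and without the IL-10 times these were 0.859, 0.655 and 0.647. For CXCR5 they were JUNB (0.88), IRF1 (0.856) and ELF3 (0.845), and without IL-10 0.85, 0.77 and 0.753. For the 5 other members the values without IL-10 ran from 0.658 to 0.893. CXCR4 lay closest to OAS1 (0.849), TGIF1 (0.802) and NARF (0.788), S1PR1 to SIPA1L3 (0.792), ITGB5 (0.718) and TMEM60 (0.711), and CCR7 to DPYSL3 (0.784), SAMD1 (0.758) and CDH12 (0.738). RGS1 was closest to ERCC5 (0.875), TMEM167A (0.858) and EVI2A (0.798), and RGS2 to MBD4 (0.855), PDCD1LG2 (0.79) and TXNIP (0.751). These are descriptions over means that share arrays, and the closest of many genes are high by selection.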

How the data were processed

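RNA was measured on 2-colour arrays of 2 cell lines. The deposited values were log ratios of the 2 channels, read here as log2 of Cy5 (treated) over Cy3 (control), with the dyes per the labels' protocols. The base is not stated. Values ran from -7.868 to 5.81, array medians from -0.031 to 0.011, and 12.6% of cells were blank; for background correction, spot filter and normalization the sources used here give nothing. Channel intensities were not used. Treated RNA was in Cy5 on every array, so dye bias of a gene remains in its ratio.

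Each array was centred on its median, and the 10169 probes naming 1 gene were averaged into 4604 genes. One mean per experiment and time (26 in all) was fitted over the 40 arrays with moderated statistics of limma 3.58.1 in R 4.3.3, and means over windows were tested against 0 with Benjamini-Hochberg adjustment over all genes tested, at 0.05. A gene was tested where at least 75% of a window's arrays and every time had a value. The fit was tested on simulated data. Alternatives were scaling arrays to equal spread, no centring, other summaries of a gene's probes, other filters on blanks, replicate or run as a block, each experiment's arrays alone, and leaving out each array. The members, gene lists, windows and alternatives were chosen with earlier results of these data known. Genes named beside the members were up to 2 called genes of largest size per list and experiment, the 3 closest by correlation, STAT3 and NFKBIA; GZMB and GNG10 met the first rule in the experiments given, except GNG10 with IL-6, which was named after its value was seen. One gene list is not reported here.

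The labels do not say whether replicates were separate cultures or whether arrays shared control RNA, so the spread behind each p-value is that between these samples and may be technical. Deviations of same-numbered arrays correlated at 0.393 to 0.59 over the pairs of times for IL-10 and 0.185 to 0.229 for IL-6, so these numbers pair arrays. The correlation was 0.254 for STAT3 siRNA and 0.217 for JAK inhibitor I. For the super-repressor in OCI-Ly3 it ran from -0.368 to 0.336, so its numbers do not pair arrays throughout, though the replicate block was used there too.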

Additional observations from a re-analysis of the deposited data

Results flagged for a closer look

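For 4 of the 8 members the effect of IL-10 in OCI-Ly3 differed between 24 to 96 h and 1 and 3 h by the test of that difference, which called 12.9% of 4402 genes. It was 1.64 for GPR183, 0.59 for CXCR4, -0.71 for ACKR3 and 0.64 for RGS2 on the log2 scale. Of these 4, only RGS2 was still called with arrays scaled to equal spread, and only GPR183 and RGS2 in a fit of the IL-10 arrays alone. Without the 96 h array ACKR3 (adjusted p = 0.155) and RGS2 (adjusted p = 0.11) were not called. For GPR183 no array of 24 to 96 h lay as low as any of 1 and 3 h. The 48 and 96 h arrays share 1 run that holds no earlier time, so part of each difference cannot be told apart from that run. Within the 2 runs that hold 1, 3 and 24 h, the 24 h array minus the mean of 1 and 3 h was 1.17 and 2.23 for GPR183, 0.57 and -0.11 for CXCR4, -0.35 and -0.30 for ACKR3, and 0.40 and 0.60 for RGS2.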

How the results depend on the processing

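Counts of members called, with the count as reported in brackets, moved by more than 1.5 times as follows. With arrays scaled to equal spread they were 4 for the super-repressor in OCI-Ly10 (2), 0 for STAT3 siRNA (1) and 2 for IL-10, 24 to 96 h minus 1 and 3 h (4). Of all genes, 238 (24), 83 (144) and 274 (567) were called there, in the same order. With the probe on most arrays they were 1 for IL-6 (2), 1 with super-repressor in OCI-Ly10 (2) and 2 for STAT3 siRNA (1). Genes called in all were 83 (150), 28 (24) and 257 (144). With the run block, super-repressor gave 3 in OCI-Ly3 (6) and 0 in OCI-Ly10 (2), IL-6 gave 1 (2), and there was 1 each (0) for the late minus early differences of IL-6 and of the super-repressor in OCI-Ly3. This block called 103 (616), 5 (24), 32 (150), 33 (12) and 37 (21) of all genes, in that order. With the experiments' own arrays alone they were 3 for IL-10 (5), 0 for STAT3 siRNA (1), 1 for JAK inhibitor I (3) and 2 for the IL-10 late minus early difference (4). These fits called 1031 (1548), 0 (144), 12 (146) and 189 (567) of all genes. The super-repressor in OCI-Ly10 could not be fitted alone. With probes that have a value on every array, chosen after seeing the data, they were 1 for IL-6 (2) and 2 for STAT3 siRNA (1), with 60 (150) and 154 (144) genes called in all. Smaller shifts, of 1 member each, were to 4 for IL-10 (5) with scaling or the run block and 6 with the probe on most arrays, to 4 with scaling and 2 with the run block for IL-10 minus IL-6 (3), to 3 for JAK inhibitor I minus IL-6 (2) with scaling or own arrays alone, to 2 for JAK inhibitor I (3) with the run block or the probe on most arrays, and to 5 with super-repressor in OCI-Ly3 (6) with the probe on most arrays, the median over probes, every-array probes or own arrays alone.

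With the replicate block RGS1 was added for STAT3 siRNA (2 members in place of 1; adjusted p = 0.0284), RGS2 for the super-repressor in OCI-Ly10 (3 in place of 2; adjusted p = 0.0419), RGS1 for IL-10 late minus early (5 in place of 4) and for IL-10 minus IL-6 (4 in place of 3), and S1PR1 for JAK inhibitor I minus IL-6 (3 in place of 2; adjusted p = 0.0162). In the same order, 417 (144 as reported), 39 (24), 765 (567), 534 (346) and 162 (87) of all genes were called with the block. It changed no other member's call in these windows and differences. The super-repressor in OCI-Ly10 had 1 array per time, so the block could not pair its arrays and changed only the spread used in the test. That also holds for RGS1 at 96 h of IL-10 and S1PR1 at 0.5 h of IL-6, named next. At single times it added GPR183 (1 and 6 h), RGS1 (6 h) and S1PR1 (0.5 h) with IL-6, RGS2 (1 and 24 h), CXCR5 (6 h) and RGS1 (96 h) with IL-10, RGS2 (2 and 4 h), CXCR4 and RGS1 (4 h) and GPR183 (6 h) with super-repressor in OCI-Ly3, and RGS2 (6 h) with JAK inhibitor I, at an adjusted p of 0.0177 to 0.0492. Leaving out 1 array at a time, the super-repressor gave 4 to 6 members in OCI-Ly3 and 0 in OCI-Ly10, IL-10 gave 4 to 5, IL-6 and JAK inhibitor I 1 to 2 each, STAT3 siRNA 1, IL-10 late minus early 2 to 4 and IL-10 minus IL-6 2 to 4.

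Over the alternatives with every array kept, the number of genes called ran from 793 to 1912 for IL-10 (1548 as reported), 32 to 455 for IL-6 (150), with the super-repressor 103 to 1105 in OCI-Ly3 (616) and 5 to 238 in OCI-Ly10 (24), 0 to 417 for STAT3 siRNA (144) and 12 to 260 for JAK inhibitor I (146). For the differences it ran from 189 to 765 for IL-10 late minus early (567), 6 to 33 for IL-6 (12), with the super-repressor 0 to 37 in OCI-Ly3 (21), 103 to 534 for IL-10 minus IL-6 (346) and 48 to 206 for JAK inhibitor I minus IL-6 (87). The lowest counts came mostly from the run block or an experiment's own arrays, the highest mostly from the replicate block or scaling. Scaling to equal spread put 61.8% of the calls for IL-6 higher in place of 76.7%, and 52.1% in place of 41.7% for the super-repressor in OCI-Ly10. No called member changed sign under these alternatives. The causes of these shifts were not tested, and the number of arrays limits the precision.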
